A study of Mus musculus with 4 samples.

Results

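The endothelial junction and surface identity genes described here in single cells of the mouse hyaloid vessels were Cdh5, Pecam1, Esam, Tjp1, Egfl7, Cd93, Mmrn2, Vwf, Cd34 and Emcn, 10 of the 32285 genes measured. The genes were chosen by name, with earlier results of these data known. Their values were read in 32 cells that remained when the filters stated by the study were applied again. The study's own set differs by a few pericytes, so these need not all be its cells. Of 1536 wells, 42 held 1000 to 8000 transcripts (totals scaled between plates) with a mitochondrial share under 10%. Among them 11 cells with Cldn5 and no Pdgfrb transcripts were taken as endothelial cells, and 21 cells with Pdgfrb and no Cldn5 transcripts as pericytes. The cells came from the vitreous bodies of mice at postnatal day 6. The controls, Gpr124 fl/fl, carried floxed Gpr124 alleles and no Cre. The knockouts, Gpr124 dEC/dEC, carried the same alleles with VECad-Cre-ERT2, a tamoxifen-dependent Cre recombinase driven by the promoter of Cdh5, itself one of the genes described. Both genotypes received tamoxifen. The pups of each genotype were pooled into 1 suspension, so that each genotype is 1 sample, and each suspension filled a pair of plates, 1 sorted for CD31 and 1 for PDGFRB (the CD31 plate and the PDGFRB plate). The dEC/dEC PDGFRB plate also received cells of the CD31 gate in wells that are not known, so for dEC/dEC a comparison by gate is one of plates and not of pure gates. CD31 is the product of Pecam1, so Pecam1 is not independent of the sort.

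Endothelial cells line blood vessels as a sheet whose cells hold on to each other at adherens and tight junctions, and they display a glycoprotein coat towards the blood. VE-cadherin, the product of Cdh5, forms the adherens junction, PECAM1 and ESAM are immunoglobulin-type adhesion molecules at the same borders, and ZO-1, the product of Tjp1, is a scaffold that ties tight junction proteins to actin. CD93 is a lectin-like surface receptor that binds the matrix protein multimerin-2, encoded by Mmrn2. EGFL7 is a secreted, matrix-bound endothelial protein, von Willebrand factor (Vwf) is stored in endothelial granules and captures platelets, and CD34 and endomucin (Emcn) are sialomucins of the surface coat. In the eye, the hyaloid vessels are a transient bed that regresses after birth.

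SORT-seq counts transcripts by unique molecular identifiers (UMIs), random tags that mark each captured RNA molecule. The 4 plates of 384 wells held between 51972 and 174645 UMIs, and 1478 wells fell below the lower limit. The endothelial cells held 15184 UMIs in 5 fl/fl cells and 15864 in 6 dEC/dEC cells, 43.5% of the latter in 1 cell of 6901 UMIs. The pericytes held 32109 UMIs in 9 fl/fl cells and 48351 in 12 dEC/dEC cells, and the dEC/dEC CD31 plate gave no pericyte. All plates used the same well barcodes, and for 10 of the 32 cells the same barcode was also above 1000 UMIs in another plate. Levels are given as UMIs per 10000 UMIs of the same cells, with exact 95% Poisson intervals that cover counting error only. Adgra2, the gene of GPR124, received 3 UMIs in fl/fl and 0 in dEC/dEC endothelial cells, and 7 and 17 UMIs in the pericytes. Where the tags lie relative to the deleted exons was not given in the sources used here.

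The class labels were set beside marker lists. The lists include the class genes Cldn5 and Pdgfrb, so part of the separation was fixed by the class rule. Cldn5 gave 40 UMIs in fl/fl and 28 in dEC/dEC endothelial cells. Over 15 endothelial markers the endothelial cells held 72.8 to 127 UMIs per 10000 and the pericytes 0 to 24.5. Over 15 pericyte markers the endothelial cells held 0 to 39.7 UMIs per 10000 and the pericytes 132 to 413. Erg received no UMI in any endothelial sum, and 2 or 3 others of Sox17, Sox18, Clec14a, Icam2, Ly6c1 and Robo4 were also at 0 in each plate. The 3 endothelial cells of the fl/fl PDGFRB plate carried 224 to 367 UMIs per 10000 of 5 erythroid genes, against 0 to 13 in the other endothelial cells.

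For 4 of the 10 genes a promoter sequence was at hand (RefSeq, GRCm38.p6). They are shown because Cd34 and Egfl7 were almost without UMIs in pericytes while Emcn and Tjp1 were not. Each window holds the 250 bases before a transcription start, 5′ to 3′ on the strand of the gene. Capitals mark the letters GGAA or TTCC, the core bound by ETS factors read on either strand, and GGGCGG or CCGCCC, the GC box read on either strand, which share no overlap with each other.
Cd34, chr1:194938571-194938820, plus strand: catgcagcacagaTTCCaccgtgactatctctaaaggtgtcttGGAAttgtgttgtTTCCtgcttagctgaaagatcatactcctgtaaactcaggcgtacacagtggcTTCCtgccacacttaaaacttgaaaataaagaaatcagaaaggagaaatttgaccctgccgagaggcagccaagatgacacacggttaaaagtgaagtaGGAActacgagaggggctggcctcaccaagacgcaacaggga
Egfl7, chr2:26583615-26583864, plus strand, the second of 3 starts and inside the gene: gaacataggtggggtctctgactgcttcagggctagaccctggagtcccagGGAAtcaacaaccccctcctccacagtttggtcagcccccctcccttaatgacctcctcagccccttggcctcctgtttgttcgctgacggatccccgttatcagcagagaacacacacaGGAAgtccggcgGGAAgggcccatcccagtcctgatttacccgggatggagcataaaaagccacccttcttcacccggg
Emcn, chr3:137340828-137341077, plus strand: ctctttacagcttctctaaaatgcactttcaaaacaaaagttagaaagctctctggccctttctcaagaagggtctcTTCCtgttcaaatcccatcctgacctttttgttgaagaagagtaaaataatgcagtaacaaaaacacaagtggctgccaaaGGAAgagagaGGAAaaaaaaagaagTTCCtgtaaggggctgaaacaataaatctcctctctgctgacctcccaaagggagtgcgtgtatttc
Tjp1, chr7:65371245-65371494, minus strand and inside the gene: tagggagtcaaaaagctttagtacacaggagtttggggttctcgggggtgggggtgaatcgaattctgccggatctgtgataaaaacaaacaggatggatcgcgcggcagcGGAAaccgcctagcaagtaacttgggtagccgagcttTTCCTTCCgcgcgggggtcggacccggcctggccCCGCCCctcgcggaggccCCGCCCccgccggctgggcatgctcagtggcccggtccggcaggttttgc
The windows held GGAA or TTCC 5 times for Cd34, 3 times for Egfl7, 4 times for Emcn and 3 times for Tjp1. Over 32851 promoter windows of the same length, 93.4% held it, the median was 3 copies and 33.4% held 4 or more. The GC box was found 2 times for Tjp1 and 0 times in the other windows shown, and 32.7% of all windows held it. The other Egfl7 starts held 5 and 1 copies of GGAA or TTCC and 0 and 4 GC boxes. GC content was 46.4% for Cd34, 58.4% for Egfl7, 40.8% for Emcn and 63.2% for Tjp1, against a median of 52.4%. Cdh5, Pecam1, Esam, Cd93, Mmrn2 and Vwf had no entry in that table.

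On GRCm38 (GENCODE), all 10 genes were protein coding. Cdh5 lies at chr8:104101625-104144511, Pecam1 at chr11:106654217-106750628, Esam at chr9:37528078-37538319 and Tjp1 at chr7:65296165-65527781. Cd93 lies at chr2:148436640-148443563, Mmrn2 at chr14:34375465-34404287, Egfl7 at chr2:26580014-26593120 and Vwf at chr6:125546774-125686679. Cd34 lies at chr1:194938819-194961279 and Emcn at chr3:137341067-137432185. Genes overlapped 4 of them, Cdh5, Tjp1, Egfl7 and Cd34. Of the overlapping genes that were looked up, Gm29682 (at Cdh5) and Gm16897 (at Cd34) received 0 UMIs in both classes, and Agpat2 (at Egfl7) received 0 in endothelial cells and 2 in pericytes.

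The first comparison asked how far the genes separated endothelial cells from pericytes. All 10 genes summed gave 51.3 to 181 UMIs per 10000 in the 11 endothelial cells and 0 to 26.7 in the 21 pericytes, so that no pericyte reached an endothelial cell. A group of 6 genes, Cdh5, Pecam1, Egfl7, Mmrn2, Vwf and Cd34, had 0 or 1 UMI over all pericytes. The other 4, Esam, Tjp1, Cd93 and Emcn, had 10 to 49 UMIs there. This split was made after the values were seen and received no test.

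**Figure D1:**
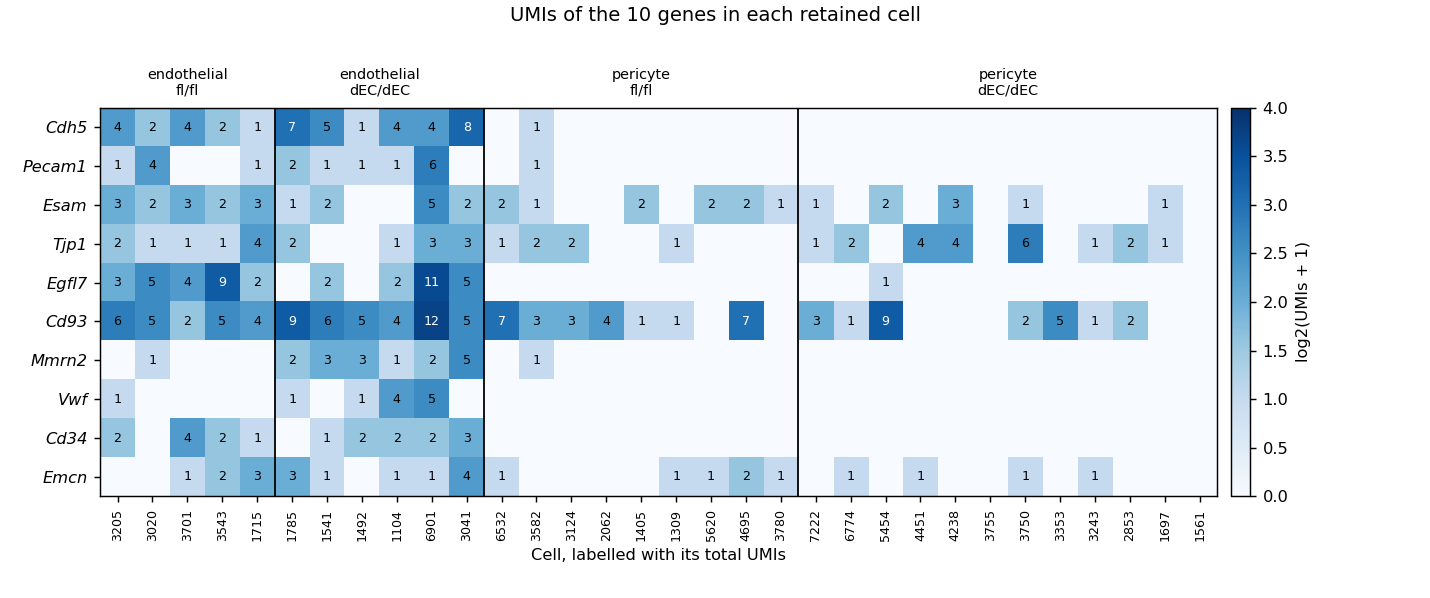
UMIs of each of the 10 genes (rows) in each of the 32 cells (columns, labelled with the cell's total UMIs and ordered by class, genotype and plate). Numbers and shade give the UMIs, with shade on a log2(UMIs + 1) scale and blank squares at 0. Cdh5 and Cd93 are filled in all 11 endothelial cells, and the rows of Vwf and Cd34 are blank in all 21 pericytes.

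Cells of 1 plate are not replicates, so UMIs were summed per class and plate, giving 4 endothelial and 3 pericyte sums from the 2 suspensions. The p-values therefore measure the spread between plates of a class. That spread takes in the difference between genotypes and may also be technical. In 7 of the 10 genes every endothelial sum lay above every pericyte sum, against 1.68% of the 10829 genes with at least 1 UMI. The genes whose sums overlapped were Mmrn2, Vwf and Emcn, each with an endothelial plate at 0 UMIs. This rule needs a UMI in each of the 4 endothelial sums. The 1.68% thus also counts genes with too few UMIs to meet it and is not a like background. The edgeR quasi-likelihood test with its expression filter took in 148 genes, and 2 of the 10 passed that filter, Egfl7 and Cd93. Both were higher in endothelial cells at an adjusted p under 0.05, beside 12.8% of the genes tested. Egfl7 had a log2 fold change of 5.75 ± 1.07 (SE, edgeR adjusted p = 7.36e-07), and it passed the filter only through the endothelial sums in which it is high. Cd93 had 1.36 ± 0.38 (SE, edgeR adjusted p = 0.00162). Cd93 too passed the filter through the endothelial sums, with levels of 12.3 to 40.5 there and 4.76 to 10.5 in the pericyte sums. Its edgeR adjusted p was 0.534 without the filter. With plate as a block the edgeR adjusted p of Cd93 was 0.0815 and the log2 fold change 0.94, and without the dEC/dEC CD31 plate the values were 0.0925 and 0.90. Without the dEC/dEC PDGFRB plate the adjusted p of Cd93 was 0.203. Of the genes called in either direction, 35.2% were higher in endothelial cells, and 66.7% without the TMM factors, which moved the median log2 fold change of all genes from 0.08 to 0.44.

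Without the filter all 10 genes could be fitted. Then 6 passed an adjusted p of 0.05 in edgeR, all higher in endothelial cells, against 0.462% of 10829 genes, many with few UMIs. The 6 were Cdh5 (adjusted p = 3.06e-06), Egfl7 (2.41e-06), Cd34 (0.0011), Pecam1 (0.0168), Mmrn2 (0.0168) and Vwf (0.0211). For Mmrn2 and Vwf the difference rests on the dEC/dEC cells, which gave 16 of 17 and 11 of 12 endothelial UMIs. In fl/fl endothelial cells each stood at 0.659 per 10000, against 0.311 (Mmrn2) and 0 (Vwf) in fl/fl pericytes. The other 4 did not pass, Cd93 at 0.534, Esam and Emcn at 0.572 and Tjp1 at 0.938.

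**Figure D2:**
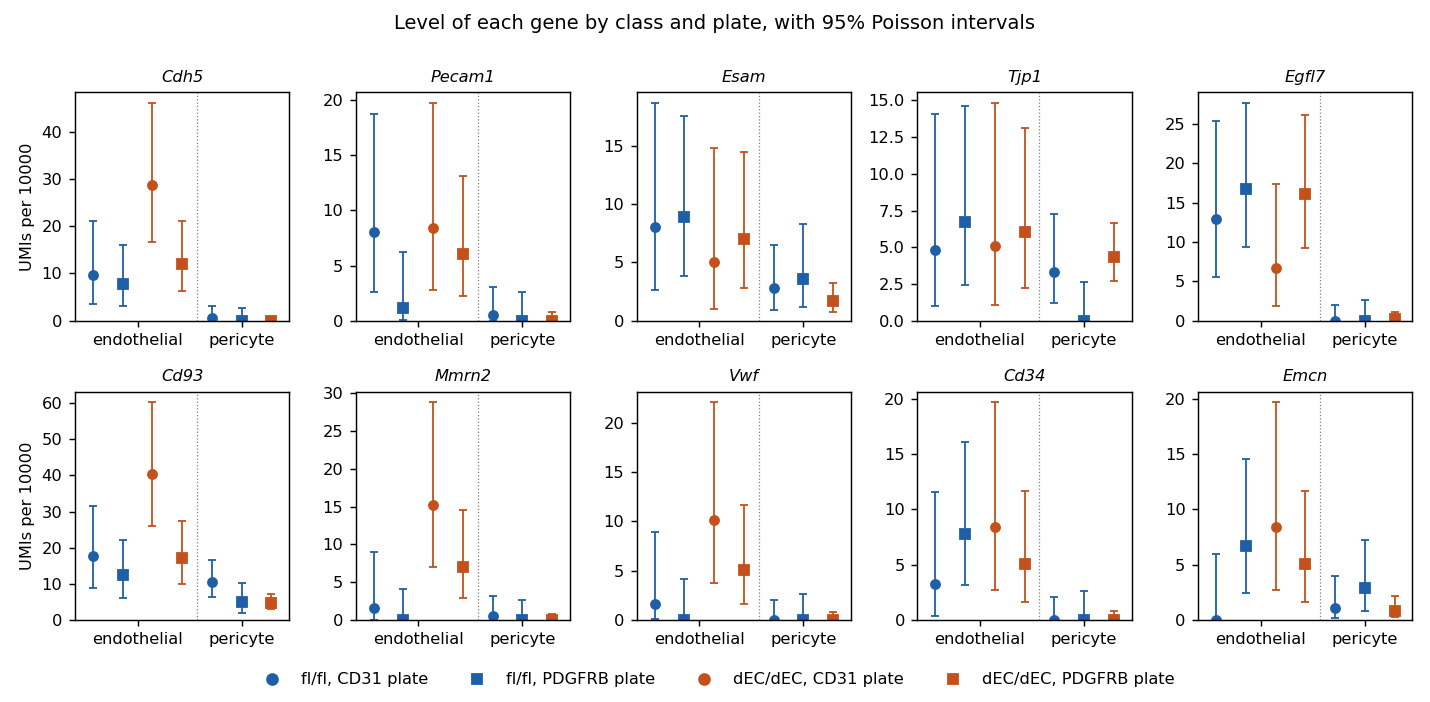
Level of each gene, in UMIs per 10000, in the endothelial sums (left of the dotted line) and pericyte sums (right) of each plate. Blue marks fl/fl and orange dEC/dEC, circles the CD31 plates and squares the PDGFRB plates, and bars are exact 95% Poisson intervals. The pericyte points of Cdh5, Pecam1, Egfl7, Mmrn2, Vwf and Cd34 lie at or below 0.555, and those of Cd93 between 4.76 and 10.5.

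Of the junction genes, Cdh5 received 6 and 7 UMIs in the fl/fl endothelial sums (CD31 and PDGFRB plate) and 17 and 12 in the dEC/dEC sums, or 9.64, 7.81, 28.7 and 12.1 per 10000. All 11 endothelial cells held it, against 1 of 21 pericytes (4.76%, exact 95% interval 0.12 to 23.8). When each cell was thinned to 1000 UMIs, 8.2 of 11 endothelial cells and 0.279 of 21 pericytes were expected to hold it. The median depth was 3205 (fl/fl) and 1663 (dEC/dEC) UMIs in endothelial cells and 3582 and 3752 in pericytes. Pooled over plates, the level was 109 times that of pericytes, with a counting interval of 18.5 to 4400 that reflects the 1 UMI in pericytes.

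Pecam1 received 5 and 1 UMIs in the fl/fl endothelial sums and 5 and 6 in the dEC/dEC sums. It was found in 8 of 11 endothelial cells. The fl/fl PDGFRB plate was the low one, with 1.12 per 10000 against 8.03, 8.44 and 6.04 in the others, and 6 of the 11 dEC/dEC UMIs came from 1 cell. The 1 pericyte with a Pecam1 UMI was also the pericyte with the 1 Cdh5 and the 1 Mmrn2 UMI, a cell of 3582 UMIs in the fl/fl CD31 plate with 0 Cldn5 and 2 Pdgfrb UMIs.

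Esam and Tjp1 differed from these in that pericytes held them too. Esam received 5 and 8 UMIs in the fl/fl and 3 and 7 in the dEC/dEC endothelial sums, 5.07 to 8.93 per 10000, and 1.65 to 3.55 in the pericyte sums. It was held by 9 of 11 endothelial cells and 11 of 21 pericytes. Tjp1 was the least separated of the 10 by its ratio, with 4.82 to 6.7 per 10000 in the endothelial sums, 0 to 4.34 in the pericyte sums and a ratio of 1.73 (0.896 to 3.25). Its pericyte UMIs were uneven, 21 in the dEC/dEC PDGFRB plate, 6 in the fl/fl CD31 plate and 0 in the fl/fl PDGFRB plate. Of the 21, 6 came from 1 cell of 3750 UMIs that also held 32 UMIs per 10000 of macrophage markers.

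CD93 and its ligand multimerin-2 had unlike patterns. Cd93 received 11 and 11 UMIs in the fl/fl and 24 and 17 in the dEC/dEC endothelial sums and was held by all 11 endothelial cells. In pericytes it received 19 and 7 UMIs in the fl/fl plates and 23 in the dEC/dEC plate and was held by 14 of 21 cells, up to 9 UMIs in a cell. The pooled endothelial level was 3.33 times that of pericytes (2.26 to 4.94). Mmrn2 received 1 UMI over all 21 pericytes and 17 in endothelial cells, 1 in fl/fl and 16 in dEC/dEC.

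Among the secreted and granule proteins, Egfl7 received 8 and 15 UMIs in the fl/fl and 4 and 16 in the dEC/dEC endothelial sums, 6.75 to 16.7 per 10000. It was held by 9 of 11 endothelial cells and 1 of 21 pericytes. Vwf was found in 5 of 11 endothelial cells, 1 fl/fl and 4 dEC/dEC, with 1 to 5 UMIs each. No pericyte held Vwf, which allows a level of up to 0.373 per 10000 and a share of cells with a UMI of up to 14.3% by the floor of 3 counts over all pericytes (0.458 and 16.1% by the exact intervals). The pooled endothelial level was 10.4 times that floor, and the exact interval of the ratio began at 7.2.

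The sialomucins parted in the pericytes. Cd34 received 2 and 7 UMIs in the fl/fl and 5 and 5 in the dEC/dEC endothelial sums, in 9 of 11 cells, and 0 in pericytes, so that the pooled level was 16.4 times the same floor, and the exact interval of the ratio began at 12.1. Emcn received 0 and 6 UMIs in the fl/fl and 5 and 5 in the dEC/dEC endothelial sums, in 8 of 11 cells. In pericytes Emcn received 10 UMIs in 9 of 21 cells, with a pooled ratio of 4.15 (1.77 to 10.2). In endothelial cells Egfl7, Emcn and Cd93 stood at 43, 16 and 63 UMIs, and in pericytes at 1, 10 and 49. These genes were set side by side after their values were seen, so their unlike proportions between the classes are no separate result. The source of the pericyte UMIs was not tested.

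The second comparison set the genotypes side by side in the endothelial cells. With 1 suspension per genotype no test was made, and intervals of ratios are exact conditional binomial 95% intervals for counting error only. All 10 genes together received 103 UMIs in fl/fl and 167 in dEC/dEC cells, 67.8 and 105 per 10000, a log2 ratio (fl/fl over dEC/dEC) of -0.63 (-1.0 to -0.27). By plate the sums were 67.5 and 68.1 per 10000 in fl/fl, and 137 (CD31 plate) and 86.5 (PDGFRB plate) in dEC/dEC. Cell by cell, the 5 fl/fl cells ran from 51.3 to 111 and the 6 dEC/dEC cells from 73.9 to 181, so the cells overlapped. The log2 ratio was -1.02 (-1.59 to -0.46) between the CD31 plates. It was -0.35 (-0.84 to 0.14) between the PDGFRB plates, where equal levels lay within the counting interval, and -0.82 without the largest cell of each genotype. Without the fl/fl PDGFRB plate, whose endothelial cells carried the erythroid UMIs, it was -0.64. The dEC/dEC cells of the CD31 plate held 1104 to 1785 UMIs each, against 3020 and 3205 in the fl/fl CD31 plate, and the part of that depth in the result was not tested.

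**Figure D3:**
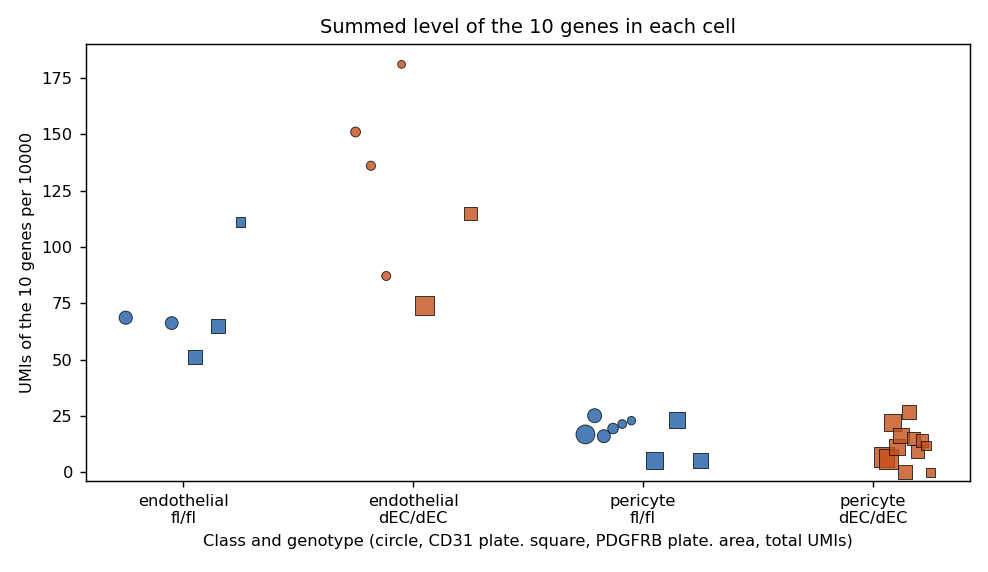
Summed level of the 10 genes in each cell, in UMIs per 10000, by class and genotype. Circles are cells of CD31 plates, squares of PDGFRB plates, and the area of a symbol follows the total UMIs of the cell. The 4 dEC/dEC endothelial cells of the CD31 plate reach 87.1 to 181, and all pericytes lie at or below 26.7.

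A 2-fold difference with at least 10 UMIs was used as a rule of size. By it 3 of the 10 genes were lower in fl/fl endothelial cells, Cdh5, Mmrn2 and Vwf, and none was higher. Over the 538 genes with at least 10 UMIs, 17.8% were lower by this rule and 12.6% higher. The median log2 ratio was -0.69 over the 10 genes and 0.06 over all 538. Since the 10 genes were chosen with earlier results of these data known, these shares and medians are a description only. The count of 3 became 0 when the dEC/dEC CD31 plate was left out, where Cdh5 had a log2 ratio below the 2-fold size and Mmrn2 and Vwf too few UMIs. It became 5 without the dEC/dEC PDGFRB plate and 5 without the fl/fl CD31 plate.

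Mmrn2 had the widest difference. It received 1 UMI in the 5 fl/fl cells and 2, 3, 3, 1, 2 and 5 UMIs in the 6 dEC/dEC cells. Every dEC/dEC cell held it and 1 of 5 fl/fl cells did. The level was 15.3 times higher in dEC/dEC cells, with an interval of 2.38 to 642, and it was lower in fl/fl in all 12 alternatives that gave a value, from -4.53 to -2.65 on the log2 scale. Thinned to 1000 UMIs, 4.77 of 6 dEC/dEC and 0.331 of 5 fl/fl cells were expected to hold it.

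Vwf received 1 UMI in fl/fl and 11 in dEC/dEC cells, 0.659 and 6.93 per 10000, a ratio of 10.5 (1.53 to 453) towards dEC/dEC. Those 11 UMIs lay in 4 of 6 cells, 5 and 4 of them in 2 cells. Between the CD31 plates alone the counts were 1 and 6, and the interval of the log2 ratio, -8.18 to 0.39, took in 0. Over the 12 alternatives that gave a value the log2 ratio ran from -4.38 to -2.11, against -3.40 as reported, with the smallest difference without the fl/fl PDGFRB plate.

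Cdh5 received 4, 2, 4, 2 and 1 UMIs in the fl/fl cells and 7, 5, 1, 4, 4 and 8 in the dEC/dEC cells. Its level was 2.14 times higher in dEC/dEC (1.08 to 4.47), and the cells overlapped, at 5.64 to 12.5 per 10000 in fl/fl and 5.8 to 39.2 in dEC/dEC. The lowest dEC/dEC level belonged to the largest cell, and without that cell the dEC/dEC level was 27.9 instead of 18.3. Between the PDGFRB plates the log2 ratio was -0.63 with an interval of -2.21 to 0.83.

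Cd93 received 22 UMIs in fl/fl and 41 in dEC/dEC endothelial cells, 14.5 and 25.8 per 10000, and its log2 ratio of -0.83 had an interval of -1.65 to -0.05. The dEC/dEC CD31 plate stood apart at 40.5 per 10000, and the PDGFRB plate at 17.1 lay between the fl/fl plates at 17.7 and 12.3. Thus the plates of the genotypes overlapped for Cd93.

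For the other 6 genes the interval took in equal levels. Pecam1 and Emcn had log2 ratios of -0.81 (-2.53 to 0.75) and -0.67 (-2.42 to 0.93). Cd34 and Tjp1 lay near 0, at -0.09 (-1.56 to 1.36) and 0.06 (-1.44 to 1.57). Egfl7 and Esam had more UMIs per 10000 in fl/fl, at 0.26 (-0.66 to 1.21) and 0.44 (-0.86 to 1.79). Intervals of this width do not show that levels were alike. Cldn5, the claudin that defined the class, received 40 UMIs in fl/fl and 28 in dEC/dEC cells, a log2 ratio of 0.58 (-0.15 to 1.33), given only as a description because the class rule used it.

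**Figure D4:**
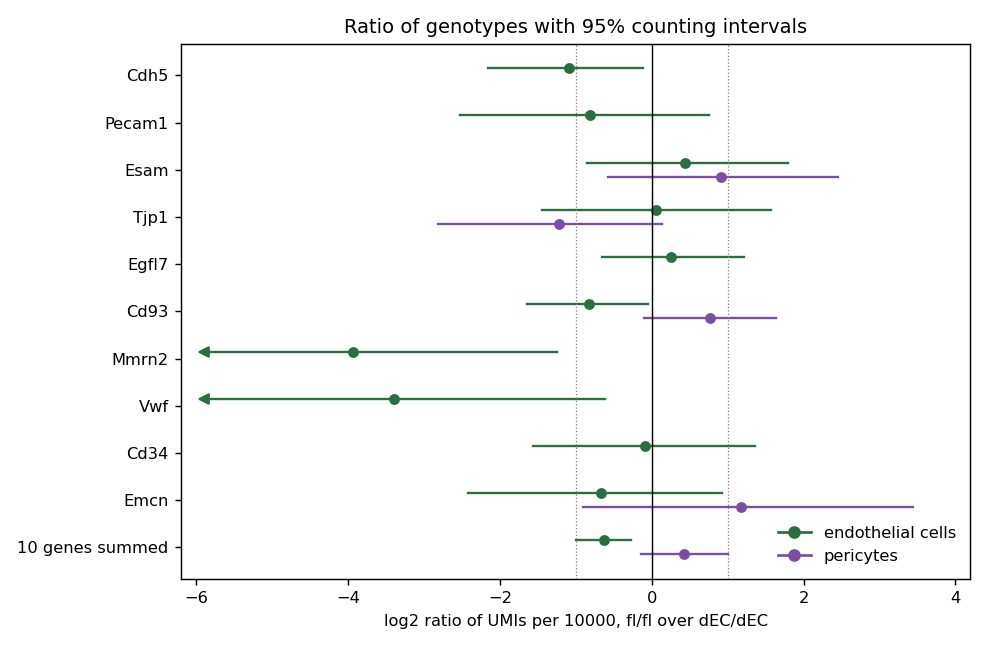
Log2 ratio of UMIs per 10000, fl/fl over dEC/dEC, for each gene and for the 10 genes summed, in endothelial cells (green) and pericytes (purple). Bars are exact 95% counting intervals, arrowheads mark bars that run past the axis, dotted lines mark a 2-fold difference, and genes with 3 UMIs or fewer in both genotypes of the pericytes are not drawn there. The bars of Cdh5, Cd93, Mmrn2, Vwf and the sum lie left of 0 in endothelial cells, and all pericyte bars cross 0.

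In pericytes the 10 genes together received 51 UMIs in fl/fl and 57 in dEC/dEC cells, 15.9 and 11.8 per 10000, with a log2 ratio of 0.43 (-0.14 to 1.0). The ratio was -0.05 between the PDGFRB plates, the plates with pericytes of both genotypes. Of the 4 genes with at least 10 UMIs in pericytes, Tjp1 was lower in fl/fl by the 2-fold rule and Emcn higher, against 12.6% and 13.1% of 1915 genes. Tjp1 received 6 UMIs in 9 fl/fl cells and 21 in 12 dEC/dEC cells, a log2 ratio of -1.22 (-2.82 to 0.14). Emcn received 6 and 4 UMIs, a log2 ratio of 1.18 (-0.90 to 3.44). For Cd93 the pericyte log2 ratio was 0.77 (-0.10 to 1.64), opposite in sign to that in endothelial cells, and the difference between the classes was not tested.

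The 1478 wells below 1000 UMIs took no part in the class rule, and their genotypes can be compared by plate. Summed over the 10 genes, the CD31 plates held 8.55 UMIs per 10000 in fl/fl and 6.3 in dEC/dEC, and the PDGFRB plates 4.46 and 6.07. These levels lay well below those of the endothelial cells. The log2 ratio of genotypes was 0.44 (-0.29 to 1.21) in the CD31 plates and -0.45 (-1.20 to 0.29) in the PDGFRB plates, and 0.07 (-0.42 to 0.58) over all plates. Cdh5 received 7 UMIs in the fl/fl CD31 plate and 2 in the dEC/dEC CD31 plate, a log2 ratio of 1.02 (-1.38 to 4.32), whose sign is opposite to that in the endothelial cells. Cd93 received 24 and 8 UMIs there, 0.79 (-0.41 to 2.16). Within fl/fl the CD31 plate held 1.92 times the summed level of the PDGFRB plate (1.2 to 3.12). Of the 54 UMIs in that CD31 plate, 11 came from 1 well. Within dEC/dEC, whose PDGFRB plate also received cells of the CD31 gate, the ratio was 1.04 (0.588 to 1.79).

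Other genes of the same structures were read from lists, which were also chosen with earlier results of these data known. Of 28 endothelial surface and adhesion genes, 15 had at least 10 UMIs in endothelial cells, and 6 of these were lower in fl/fl by the 2-fold rule and 0 higher, with a median log2 ratio of -0.56 beside 0.06 over all 538 genes, of which 17.8% were lower and 12.6% higher. Adgrl4, an adhesion GPCR of endothelium, received 6 UMIs in fl/fl and 16 in dEC/dEC, Kdr, the main VEGF receptor, 7 and 18, and Plvap, the protein of endothelial diaphragms, 6 and 15. The remaining 3, named after their values were seen, were Podxl, Cav1 and Adgrf5. None of the 6 had an interval that excluded equal levels. On the other side, and also named after their values were seen, Aplnr (0.94), Tie1 (0.72), Mcam (0.72) and Robo4 (0.26) had log2 ratios above 0, all under 2-fold.

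Of 16 adherens junction partners, 4 had at least 10 UMIs and none passed 2-fold. The VE-cadherin phosphatase Ptprb received 7 and 14 UMIs, the beta-catenin gene Ctnnb1 15 and 28, and Heg1, a junctional receptor, 10 and 14. Of 15 tight junction genes 2 had enough UMIs, Cldn5 and Cdc42 (10 and 13 UMIs), and neither passed. In the gap junction list Gja1, connexin 43, was the only one of 5 with enough UMIs, 8 in fl/fl and 18 in dEC/dEC, a log2 ratio of -1.11 (-2.52 to 0.17). Of 16 endothelial transcription factors 6 had enough UMIs. Sox7 was lower in fl/fl (2 and 9 UMIs) and Klf2 higher (10 and 3), both named after their values were seen. Their log2 ratios, -2.11 (-5.36 to 0.17) and 1.80 (-0.16 to 4.30), took in equal levels, beside the same 17.8% and 12.6% of all genes. The ETS factor Ets1 received 10 and 14.

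Between classes, 3 genes of these lists passed the expression filter. Ctnnb1 was higher in endothelial cells (log2 fold change 1.23 ± 0.48 SE, edgeR adjusted p = 0.0305) and Mcam, an adhesion molecule known from endothelium and pericytes, lower (-1.50 ± 0.45 SE, edgeR adjusted p = 0.00406). The third was Cldn5, the class gene. Of the 148 genes tested, 19 were higher in endothelial cells and 35 lower. Ctnnb1 passed the filter only through the endothelial sums in which it is high, and without the filter its edgeR adjusted p was 0.572. That of Mcam was 0.0166. Without the filter, edgeR called 7 of 24 surface and adhesion genes higher and 1 lower (Mcam), and 1 of 16 adherens junction partners higher (Ptprb) and 1 lower (Vcl). Of 4 gap junction genes Gja1 was higher and Gja4 lower, and of 12 transcription factors 2 were higher (Sox18 and Sox7) and 1 lower (Nr2f2). The background in that fit, which also takes in genes with few UMIs, was 0.462% higher and 1.74% lower.

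The genes whose level over the 7 sums was most like that of the 10 genes summed were Slc2a1 (Pearson r = 0.985), Rpl23 (0.957), Rpl30 (0.949), Cldn5 (0.946) and Eef2 (0.929), among 247 genes with at least 60 UMIs. The 7 points share plates and suspensions, and most of the likeness is the step between the classes. Slc2a1, the glucose transporter GLUT1, stood at 17.7 and 23.4 per 10000 in the fl/fl endothelial sums, 35.5 and 31.2 in the dEC/dEC sums, and 0 to 0.555 in pericytes. Since Slc2a1 was chosen for its likeness over these same sums, its order of genotypes is no separate result. Cldn5 and Rpl23 had the opposite order, Cldn5 with 22.5 and 29 per 10000 in fl/fl against 22 and 15.1 in dEC/dEC, and Rpl23 with 25.7 and 26.8 against 25.3 and 24.1.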

How the data were processed

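Vitreous cells of 4 plates were analysed. The authors mapped SORT-seq reads to GRCm38 with STARsolo 2.7.11b. For each well they deposited expected counts of the UMIs of every gene, which need not be whole and were not scaled between plates. Gates were taken from the study's sorting scheme, and some wells of the dEC/dEC PDGFRB plate received CD31-gate cells. The filters of the study were repeated without spike-ins, with totals scaled to the plate of the highest median. Doublets were not called, and the 3 wells with both class genes were left out. Before summing, values were rounded to whole UMIs. Classes were compared with edgeR 4.0.16 (glmQLFit, glmQLFTest, TMM, filterByExpr, Benjamini-Hochberg adjustment) in R 4.3.3, with DESeq2 1.42.0 as an alternative. The deviations of class sums from the same plate, which share a suspension, correlated at -0.02, 0.07 and 0.09 over 148 genes. Intervals used scipy 1.17.1, at 95%, with a floor of 3 counts over a group. The standard error was taken from the F statistic. The methods were tested on simulated data. By rule, named genes were the 10 genes, the class genes and the targeted gene. To these came at most 3 genes a list with at least 20 UMIs and the most extreme ratios, and the 5 most alike genes. Further genes of the lists, some with fewer than 20 UMIs, were named outside this rule after their values were seen. The members and lists were chosen with earlier results of these data known. Marker lists of macrophages, platelets, lens, melanocytes and astrocytes gave 0 to 2 UMIs in each endothelial sum. In the dEC/dEC pericyte sum the macrophage list gave 17 UMIs, and in the fl/fl pericyte sums 0. The lens list, all of it Cryab, gave 60 UMIs (12.4 per 10000) in the dEC/dEC pericyte sum. In the fl/fl pericyte sums it gave 29 (16.1 per 10000, CD31 plate) and 17 (12.1 per 10000, PDGFRB plate).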

Additional observations from a re-analysis of the deposited data

Results flagged for a closer look

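Wells left out of both classes also held UMIs of these genes above 3 counts. The 11 wells above 8000 UMIs, all with 0 Cldn5 UMIs, held 54 UMIs of Cd93, 20 of Tjp1, 19 of Esam and 9 of Emcn, and at most 1 UMI of each of the other 6 genes. Of the Cd93 UMIs, 29 came from 1 well of the dEC/dEC PDGFRB plate with 8958 UMIs, 13 of them Pdgfrb, and 0 UMIs per 10000 of the macrophage markers. The 3 wells with both class genes held 9 UMIs of Tjp1 and 8 of Cd93, the latter in 1 well.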

How the results depend on the processing

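The number of genes past an adjusted p of 0.05 between classes, 2 as reported, was 1 with DESeq2, 1 with plate as the replicate block, 1 with no upper limit, 0 with classes taken from the gate (edgeR, 4 of the genes tested, 1 at an unadjusted p under 0.05), 6 without filterByExpr, and 1 to 3 when a plate was left out. With classes from the gate the log2 fold change of Egfl7 turned to -0.15. By the class genes, the fl/fl CD31 plate held 2 endothelial cells and 6 pericytes, and the dEC/dEC CD31 plate 4 and 0. The gate classes thus mixed cell types, and the mix differed between genotypes. The log2 ratio of genotypes for the 10 genes summed in endothelial cells was negative in all 14 alternatives. It was -1.75 with classes from the gate, where unlike cell mixes are compared. It was -1.02 in the CD31 plates, and -1.01 to -0.35 when a plate was left out. In pericytes it was -0.05 to 0.72 when a plate was left out, and it could not be computed for the CD31 plates alone or without the dEC/dEC PDGFRB plate, which leave no dEC/dEC pericyte. The number of genes at least 2-fold lower in fl/fl, 3 as reported, was 0 in the PDGFRB plates, 1 with a minimum of 20 UMIs, and 0 to 5 when a plate was left out. With fewer UMIs left, Mmrn2 and Vwf fall below the minimum in the first of these. The other causes were not tested. Counting depth, 15184 and 15864 endothelial UMIs, and 1 suspension per genotype limit every comparison of genotypes.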
